A study of Mus musculus with 9 samples.

Results

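The genes described here are 32 genes of sterol and fatty acid synthesis, chosen by symbol from 19072 gene identifiers measured in mouse 4T1-TGL breast cancer cells. They fall into 7 genes of the mevalonate arm, 11 genes of squalene and sterol ring synthesis, 6 regulators and transporters of the sterol response, and 8 genes of fatty acid synthesis and modification. The symbols were taken for their place in the pathway, with earlier results of these data known. All 32 were listed and passed the filter on low counts. The 3 groups of cells were KO2 and KO1, which carry the genotype Malat1 KO, and Ctrl, which has Malat1 intact (n = 3 libraries per group). All 3 groups are 4T1-TGL cells of BALB/c origin grown in DMEM/F12 medium, and total RNA was sequenced. 4T1 is a mammary tumour line that spreads from the mouse mammary gland to distant organs, and Malat1 is a long non-coding RNA that resides in nuclear speckles. How the knockouts were made, whether KO1 and KO2 are single clones and whether the 3 libraries of a group came from separate cultures are not given in the sources used here, so p-values measure only the spread between libraries, which may be technical.

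Cells build cholesterol and fatty acids from acetyl-CoA. The mevalonate arm turns acetyl-CoA into isoprenoid units, which are joined to squalene, closed to lanosterol and trimmed to cholesterol, while another route carboxylates acetyl-CoA and builds fatty acids that are then elongated and desaturated. Both routes are driven by the SREBP transcription factors, which are escorted from the endoplasmic reticulum by SCAP and held back there by the INSIG proteins when sterols are abundant. Proliferating tumour cells are known to use both routes to supply membranes.

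Malat1 itself was measured at 16.5, 22.2 and 13.4 FPKM in the KO2 libraries, at 0.58, 0.54 and 0.39 FPKM in the KO1 libraries, and at 74.1, 58.1 and 69.5 FPKM in the Ctrl libraries, where FPKM is a read level scaled for transcript length and library size. Both knockouts were below every Ctrl library, and KO2 kept more Malat1 signal than KO1: the log2 fold change was -1.88 in KO2 and -7.08 in KO1. Library totals were between 30655924 and 35406395 estimated counts. Of 10 epithelial markers, Krt8 and Krt18 made up most of the summed level, which was 1350.0 to 1450.0 FPKM in KO2, 840.0 to 985.0 in KO1 and 496.0 to 509.0 in Ctrl, whereas Krt7 averaged 0.477 ± 0.0586 FPKM in KO2, 34.1 ± 1.47 in KO1 and 31.6 ± 0.626 in Ctrl. Of the 6 epithelial markers tested, 3 were called higher and 2, Krt7 and Elf3, lower in KO2 against Ctrl, and 2 were called higher in KO1 against Ctrl. Epcam did not exceed 0.32 FPKM and Cdh1 did not exceed 0.08 FPKM in any library. Fibroblast and macrophage markers differed too. Of 8 fibroblast markers 7 were listed, and they summed to 23.9 to 24.1 FPKM in KO2, 45.0 to 47.5 in KO1 and 51.7 to 53.4 in Ctrl, most of it Pdgfra. Of the 4 fibroblast markers tested, 3 were called lower in KO2 against Ctrl and 2 in KO1 against Ctrl. Pi16 was called higher in both, at 3.05 ± 0.472 FPKM in KO2, 2.66 ± 0.360 in KO1 and 0.720 ± 0.187 in Ctrl. The 8 macrophage markers summed to 19.8 to 22.9 FPKM in KO2, 35.4 to 44.5 in KO1 and 26.8 to 30.2 in Ctrl, most of it Cd68 and Cd14. Ptprc did not exceed 0.02 FPKM in any library. Of the 4 macrophage markers tested, Lyz2 was called higher and Cd68 and Mrc1 lower in KO2 against Ctrl. Lyz2 was near the floor, at 0.03, 0.75 and 0.03 FPKM in KO2 and 0 in every Ctrl library. In KO1 it was at 0.32, 0.35 and 0.25 FPKM and was not called (edgeR adjusted p = 0.0517). Cd68 was called higher in KO1 against Ctrl. The part of these markers in the results below was not tested.

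Among the genes called against Ctrl in either knockout, the promoters of the 3 that rose most and the 3 that fell most, leaving aside genes not in the promoter table, are shown because they are the regions through which SREBP and its partner factors act. Each window runs from 250 bases before to 50 bases after the transcription start on the strand of the gene (RefSeq, GRCm38.p6). Capitals mark matches, on either strand, to 4 motifs: the sterol regulatory element TCACNCCAC, the E-box CACGTG, the CCAAT box CCAAT and the GC box GGGCGG. A match is a string of letters and not a measured binding site. Insig1, Fasn and Elovl6 were higher in KO2, Hsd17b7 was lower in KO2 and KO1, Lss was lower in KO2 and Mvd was lower in KO1.
Insig1 (chr5:28071162-28071461, plus strand): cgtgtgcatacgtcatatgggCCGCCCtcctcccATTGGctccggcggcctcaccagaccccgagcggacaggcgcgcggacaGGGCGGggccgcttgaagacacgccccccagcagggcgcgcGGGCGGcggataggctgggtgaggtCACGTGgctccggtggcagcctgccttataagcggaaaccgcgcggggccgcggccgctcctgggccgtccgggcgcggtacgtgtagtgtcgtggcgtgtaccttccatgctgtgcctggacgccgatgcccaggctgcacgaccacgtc
Fasn (chr11:120824498-120824797, minus strand): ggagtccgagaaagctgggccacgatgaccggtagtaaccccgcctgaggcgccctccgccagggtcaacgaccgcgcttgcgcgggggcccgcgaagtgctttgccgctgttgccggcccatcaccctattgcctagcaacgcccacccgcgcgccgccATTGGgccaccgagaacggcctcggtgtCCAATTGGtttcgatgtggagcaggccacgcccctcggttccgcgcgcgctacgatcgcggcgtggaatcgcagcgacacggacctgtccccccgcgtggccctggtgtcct
Elovl6 (chr3:129532136-129532435, plus strand): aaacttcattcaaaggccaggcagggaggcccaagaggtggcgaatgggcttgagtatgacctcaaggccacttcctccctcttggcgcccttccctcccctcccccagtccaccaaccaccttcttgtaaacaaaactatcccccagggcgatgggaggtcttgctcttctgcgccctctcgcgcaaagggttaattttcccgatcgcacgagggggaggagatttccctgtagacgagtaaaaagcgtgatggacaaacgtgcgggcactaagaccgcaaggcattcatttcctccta
Hsd17b7 (chr1:169969156-169969455, minus strand): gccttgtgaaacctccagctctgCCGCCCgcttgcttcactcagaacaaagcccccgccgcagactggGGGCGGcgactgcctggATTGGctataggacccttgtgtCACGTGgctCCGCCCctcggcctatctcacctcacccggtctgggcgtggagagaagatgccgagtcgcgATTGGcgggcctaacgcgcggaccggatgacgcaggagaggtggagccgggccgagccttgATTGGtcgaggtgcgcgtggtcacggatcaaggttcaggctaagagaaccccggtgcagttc
Lss (chr10:76531355-76531654, plus strand): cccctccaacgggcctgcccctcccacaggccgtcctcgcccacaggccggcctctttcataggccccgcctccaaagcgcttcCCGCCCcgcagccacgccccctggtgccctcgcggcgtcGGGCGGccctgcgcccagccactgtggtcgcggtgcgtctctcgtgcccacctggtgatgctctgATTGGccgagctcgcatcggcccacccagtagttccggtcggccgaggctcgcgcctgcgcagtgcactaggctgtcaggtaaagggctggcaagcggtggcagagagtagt
Mvd (chr8:122443373-122443672, minus strand): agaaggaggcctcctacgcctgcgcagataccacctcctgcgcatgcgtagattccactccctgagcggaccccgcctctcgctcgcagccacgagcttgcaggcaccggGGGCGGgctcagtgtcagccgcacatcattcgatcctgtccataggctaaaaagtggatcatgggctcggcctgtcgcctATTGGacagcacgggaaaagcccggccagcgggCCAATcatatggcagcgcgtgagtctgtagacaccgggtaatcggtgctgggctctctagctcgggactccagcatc

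Insig1, which encodes an endoplasmic reticulum protein that retains SCAP, held an E-box that begins 101 bases before the start, together with 1 CCAAT box and 3 GC boxes. Hsd17b7 moved the other way and held the same 3 kinds of motif, with an E-box that begins 143 bases before the start. The Fasn window held 3 CCAAT boxes, a pair of which overlap in the letters CCAATTGG, and the Elovl6 window held none of the 4 motifs. Lss and Mvd each held CCAAT and GC boxes. Across the genes, 25 of 32 members were in the promoter table with 33 windows, without Fdps, Fdft1, Sqle, Stard4, Scd1, Scd2 and Fads1. The GC box was in 75.8% of the 33 windows, against 35.7% of all 32851 windows, and the CCAAT box was in 63.6%, against 37.4%. The E-box was in 18.2% of the windows of the genes, those of Insig1, Hsd17b7, Dhcr7, Sc5d and Scap, against 7.15% of all windows. The sterol regulatory element in this exact form was in 1 window, that of Hmgcs1, against 1.24% of all windows. These shares are descriptions, and base composition was not matched between the windows.

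The libraries of KO1 and Ctrl were not uniform in these genes. KO1 replicate 1 had the lowest FPKM of the 3 KO1 libraries for 28 of 32 genes, where 38.9% of all tested genes were lowest in that library. Ctrl replicate 2 had the lowest FPKM of the 3 Ctrl libraries for 27 of 32 genes, where 39.1% of all tested genes were lowest in that library. For 25 of 32 genes both were true, against 21.3% of all tested genes, and only Insig2 and Tm7sf2 were lowest in neither of these libraries. The median gene of the 32 stood at 0.781 times the mean of the other 2 KO1 libraries in KO1 replicate 1 and at 0.834 times the mean of the other 2 Ctrl libraries in Ctrl replicate 2. KO1 replicate 2 was at the upper end, with the highest KO1 value for 28 of 32 genes and a median ratio of 1.25. Over all tested genes the median ratios of these 3 libraries were between 0.993 and 1.00. Scaling each library by its depth keeps such medians near 1, so they do not show that the shift was limited to these genes. Across all tested genes the deviations of KO1 replicate 1 and Ctrl replicate 2 from their group means correlated at 0.336.

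**Figure D1:**
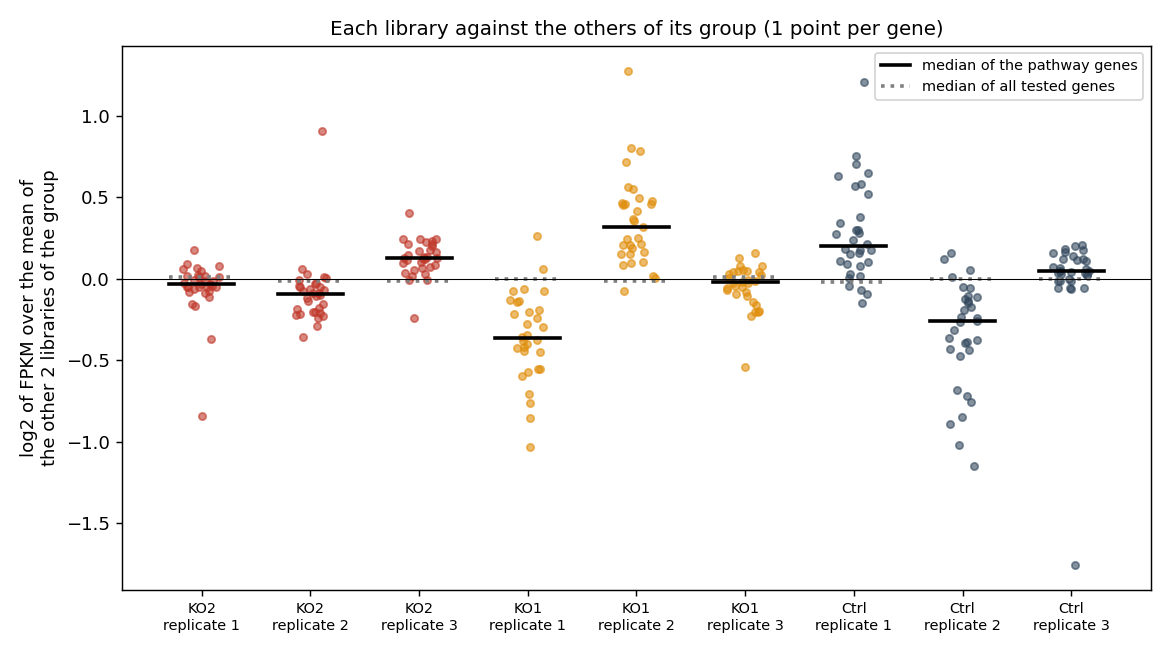
For each of the 9 libraries, the log2 ratio of a gene's FPKM to its mean in the other 2 libraries of the group. Each point is 1 of the 32 genes, drawn if its FPKM was above 0 in all 3 libraries of the group. The solid bar is the median of the genes drawn, and the dotted bar is the median of all tested genes. The median of the genes is -0.36 in KO1 replicate 1 and -0.26 in Ctrl replicate 2, and 0.32 in KO1 replicate 2, while the dotted bars stay near 0.

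Several of the lowest ratios were in genes of the sterol response and the early mevalonate arm. Insig1 in KO1 replicate 1 was 0.489 times the mean of the other KO1 libraries, and in Ctrl replicate 2 it was 0.493 times the mean of the other Ctrl libraries. Stard4, which encodes a soluble sterol transfer protein, stood at 0.589 and 0.593 times in these libraries, and Acat2, the cytosolic acetoacetyl-CoA thiolase that opens the pathway, at 0.552 and 0.540 times. Idi1, the isomerase of the isoprenoid unit, stood at 0.614 times in KO1 replicate 1 and 0.452 times in Ctrl replicate 2. Sqle, squalene epoxidase, was nearly level, at 0.915 and 0.919 times. The KO2 libraries were closer together: the median coefficient of variation of the genes with a mean of at least 1 FPKM was 6.38% in KO2, 15.2% in KO1 and 12.4% in Ctrl, against 5.38%, 9.21% and 7.34% for all tested genes at that level in KO2, KO1 and Ctrl. KO1 replicate 1 and Ctrl replicate 2 also had the largest total counts of their groups, 33748477 and 35406395, and the part of this in the pattern was not tested. Counts of calls, and calls that were lost without one of these libraries, are given below with and without both of them. The fit without both was chosen after seeing the data. Both libraries were picked for their low values in these genes, so leaving them out narrows the spread of these genes by selection. A call in that fit therefore does not show that a call lost in another fit holds.

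The genes spanned a wide range of levels, which FPKM allows to be compared between genes because it is scaled by length. Scd2, a stearoyl-CoA desaturase, was the highest of the 32 in every group, at 268.0 ± 13.4 FPKM in KO2, 210.0 ± 44.0 in KO1 and 269.0 ± 40.0 in Ctrl (SD, n = 3 each). The next in order differed between groups. In KO2 they were Fdps at 49.7 ± 3.58 FPKM and Fasn at 45.0 ± 4.52 FPKM, which lie within their spread. In KO1 Sqle at 56.2 ± 4.44 FPKM stood above Scd1 at 37.5 ± 2.79 FPKM, and in Ctrl Fdps at 43.3 ± 5.77 FPKM and Scd1 at 37.7 ± 2.32 FPKM lay within their spread. At the low end, Hsd17b7 had 0.837 ± 0.152 FPKM in KO2, 1.08 ± 0.254 in KO1 and 2.26 ± 0.656 in Ctrl. Tm7sf2, a sterol reductase of the ring steps, was also low, at 0.55, 1.22 and 0.75 FPKM in KO2, 0.63 FPKM in KO1 replicate 1 with the other two KO1 libraries listed at 0, and 0.83, 0.52 and 0.20 FPKM in Ctrl. Its estimated counts did not exceed 54 in any library, and it overlaps Vps51. The FPKM of all 32 genes summed to 846.4 at the lowest and 936.8 at the highest in KO2, to 626.9 and 863.0 in KO1 and to 696.1 and 895.8 in Ctrl, so the 3 groups overlapped in this sum.

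**Figure D2:**
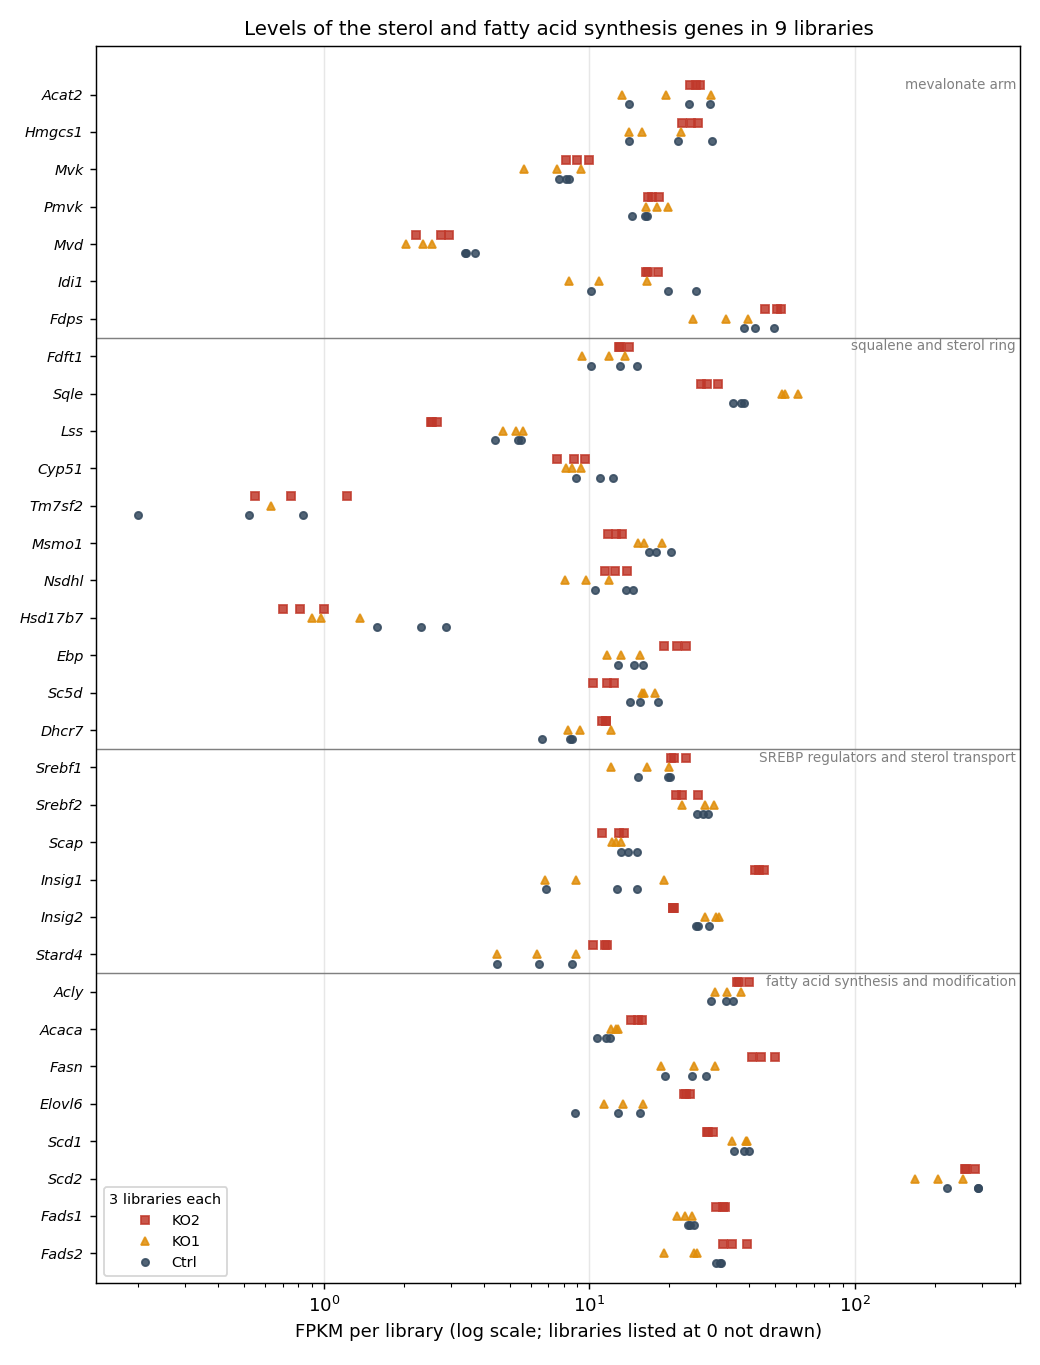
FPKM of each of the 32 genes in each library on a log axis, with KO2 as squares, KO1 as triangles and Ctrl as circles, 3 libraries each, ordered by pathway step and offset vertically by group; the 2 KO1 libraries with Tm7sf2 listed at 0 are not drawn. Insig1, Fasn and Elovl6 show KO2 set to the right of both other groups, Lss shows KO2 set to the left, and Sqle shows the 3 groups apart from each other.

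KO2 cells were compared with Ctrl to ask how the pathway stood in these Malat1 KO cells. Of the 8 fatty acid genes 5 rose and 1 fell in KO2, the sterol-response genes Insig1 and Stard4 rose, the enzymes of squalene and sterol ring synthesis were split, and none of the mevalonate genes passed the test. In all, 9 of 32 genes were higher and 7 were lower at an adjusted p under 0.05 (edgeR quasi-likelihood test, Benjamini-Hochberg adjustment over 13682 genes). KO2 differed from Ctrl throughout the transcriptome, with 54.1% of all tested genes called, 24.6% higher and 29.5% lower, so that 16 of 32 is close to the share of all genes and is not a result about this pathway as a whole. The median log2 fold change of the 32 genes was 0.23, against -0.03 for all tested genes. Without both Ctrl replicate 2 and KO1 replicate 1, 18 of 32 genes were called, 10 higher and 8 lower, where 54.3% of all tested genes were called. In bulk libraries such as these, fewer cells that express a gene and less of its RNA per cell cannot be told apart.

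None of the 7 mevalonate genes was called between KO2 and Ctrl by edgeR, and their median log2 fold change was 0.23. Of the 7 genes, 2, Pmvk and Mvd, had an unadjusted edgeR p under 0.05. DESeq2 called 0 of 7, and limma on log2 FPKM called 1, Mvd, which was lower in KO2. With only KO2 and Ctrl in the edgeR fit, Pmvk (adjusted p = 0.0338) and Fdps (adjusted p = 0.0400) were called higher, and Pmvk was also called without KO1 replicate 1 (adjusted p = 0.0432) or KO1 replicate 2 (adjusted p = 0.0330). Without both Ctrl replicate 2 and KO1 replicate 1 none was called, none had an unadjusted p under 0.05, and the log2 fold change was 0.00 for Hmgcs1 and 0.03 for Acat2. Their log2 fold changes were between -0.33 for Mvd, the mevalonate diphosphate decarboxylase, and 0.27 for Acat2. Hmgcs1, the HMG-CoA synthase, had 24.0 ± 1.66 FPKM in KO2 and 21.5 ± 7.49 FPKM in Ctrl, a log2 fold change of 0.23 ± 0.249 (SE) with an adjusted p of 0.456. Fdps, which makes farnesyl diphosphate, had a log2 fold change of 0.26 with an adjusted p of 0.170. Pmvk, phosphomevalonate kinase, had 17.4 ± 0.861 FPKM in KO2 and 15.7 ± 1.07 FPKM in Ctrl, with no overlap, but its adjusted p was 0.0669. For Acat2, Hmgcs1 and Idi1 the standard errors were between 0.249 and 0.333, against 0.0974 for Pmvk, and their highest Ctrl library was 2.01 to 2.48 times their lowest, against 1.14 times for Pmvk.

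Squalene and sterol ring synthesis was divided in KO2, with 2 of 11 genes higher and 5 lower, where 24.6% of all tested genes were called higher and 29.5% lower. Lss, the cyclase that closes squalene epoxide into lanosterol, had 2.52, 2.55 and 2.67 FPKM in KO2, against 5.52, 4.39 and 5.39 FPKM in Ctrl. Every KO2 library lay well below every Ctrl library, and the log2 fold change was -0.90 ± 0.103 (adjusted p = 2.68e-05). Hsd17b7, the ketosteroid reductase that acts in removing methyl groups from the sterol ring, had 0.70, 0.81 and 1.00 FPKM in KO2, against 2.89, 1.58 and 2.31 FPKM in Ctrl. It fell by 1.35 ± 0.242 on the log2 scale (adjusted p = 0.000789), and its groups did not overlap although Ctrl itself spread 1.83-fold. Sqle, which makes the epoxide that Lss closes, had 27.8, 26.2 and 30.5 FPKM in KO2, against 38.3, 34.7 and 37.2 FPKM in Ctrl. The fall was small beside those of Lss and Hsd17b7, at -0.31 ± 0.0837 (adjusted p = 0.00956), but the libraries did not overlap. Msmo1, the methylsterol oxidase, fell by 0.46 and Sc5d, a sterol desaturase, fell by 0.40, again with no overlap between KO2 and Ctrl.

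The 2 ring genes that rose were Ebp and Dhcr7. Ebp, the sterol isomerase, had 21.3, 19.1 and 23.2 FPKM in KO2, against 15.9, 12.8 and 14.7 FPKM in Ctrl, a log2 fold change of 0.63 ± 0.123 (adjusted p = 0.00125). Dhcr7, the reductase of a final step, had 11.1, 11.5 and 11.5 FPKM in KO2, against 8.48, 6.64 and 8.56 FPKM in Ctrl. All KO2 libraries were above all Ctrl libraries, and the log2 fold change was 0.61 ± 0.138 (adjusted p = 0.00338). Fdft1, squalene synthase, Cyp51, the lanosterol demethylase, and Nsdhl, a sterol dehydrogenase, were not called, with log2 fold changes of 0.15, -0.23 and 0.04. Tm7sf2 had a log2 fold change of 0.78 with a standard error of 0.925, so nothing can be read from it at these counts. Fdft1 overlaps Ctsb in the annotation, and whether reads were counted by strand is not given in the sources used here.

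Among regulators the INSIG pair moved in opposite directions in KO2. Insig1 had 45.4, 42.2 and 43.6 FPKM in KO2, against 15.2, 6.86 and 12.7 FPKM in Ctrl. The lowest KO2 library was far above the highest Ctrl library, and the log2 fold change of 2.00 ± 0.412 (adjusted p = 0.00423) was the largest rise among the 32 genes. Insig2, its paralogue, had 20.7 ± 0.11 FPKM in KO2 and 26.3 ± 1.55 FPKM in Ctrl (SD, n = 3 each), and its log2 fold change was -0.28 ± 0.0720 (adjusted p = 0.00712). Stard4 had 10.3, 11.5 and 11.7 FPKM in KO2, against 8.59, 4.47 and 6.48 FPKM in Ctrl, with no overlap. Its log2 fold change was 0.85 ± 0.268 (adjusted p = 0.0233), but the call was lost without Ctrl replicate 2, Ctrl replicate 3, KO2 replicate 2 or KO2 replicate 3, where the adjusted p was between 0.0568 and 0.0648. Without both Ctrl replicate 2 and KO1 replicate 1 the log2 fold change was 0.64 for Stard4 and 1.73 for Insig1, and both were called. The libraries left out were picked for low values in these genes, so this does not restore the lost call of Stard4. The transcripts of the transcription factors and their escort did not pass the test: the log2 fold change was 0.29 ± 0.169 for Srebf1, -0.14 ± 0.107 for Srebf2 and -0.09 ± 0.0877 for Scap. SREBP activity is set mainly by cleavage of the protein, which these data do not measure.

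Among the lists that make up the 32 genes, fatty acid synthesis had the most one-sided calls in KO2, with 5 of 8 higher and 1 lower. Of all tested genes 24.6% were called higher and 29.5% lower. The median log2 fold change of the 8 genes was 0.38. The calls were not one-sided in the list of other fatty acid genes described below, with 5 higher and 5 lower of 19. Fasn, the fatty acid synthase, had 44.3, 40.8 and 49.8 FPKM in KO2, against 27.6, 19.2 and 24.3 FPKM in Ctrl. It was 2.00-fold higher, with every KO2 library above every Ctrl library (log2 fold change 1.00 ± 0.177, adjusted p = 0.000961). Elovl6, which elongates the product of Fasn, had 22.8, 23.2 and 23.9 FPKM in KO2, against 15.5, 8.82 and 12.8 FPKM in Ctrl. It was 1.99-fold higher, with no overlap (log2 fold change 0.99 ± 0.184, adjusted p = 0.00132). Acaca, the carboxylase that commits acetyl-CoA to fatty acids, had 15.1 ± 0.761 FPKM in KO2 and 11.4 ± 0.642 FPKM in Ctrl and rose with a log2 fold change of 0.49; its extent overlaps Tada2a. Fads1, a desaturase of polyunsaturated fatty acids, had 31.4 ± 1.29 FPKM in KO2 and 24.1 ± 0.563 FPKM in Ctrl, a log2 fold change of 0.46. Acly, which supplies cytosolic acetyl-CoA to both routes, had a log2 fold change of 0.30 (adjusted p = 0.0209), and the call was lost without Ctrl replicate 2, Ctrl replicate 3 or KO2 replicate 3, with adjusted p-values between 0.0501 and 0.0824. Acly was called without both Ctrl replicate 2 and KO1 replicate 1, with a log2 fold change of 0.23 (adjusted p = 0.0271). That choice of libraries was made after seeing the data, so it does not restore the lost call of Acly.

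The desaturases of stearoyl-CoA did not follow Fasn and Elovl6. Scd1 fell to 28.2 ± 0.795 FPKM in KO2, against 37.7 ± 2.32 FPKM in Ctrl, a log2 fold change of -0.34 (adjusted p = 0.00256). Scd2, which is far more abundant, had a log2 fold change of 0.08 ± 0.147 in KO2 (adjusted p = 0.689). These genes are close copies of each other, so the split of reads between them is uncertain. Fads2, the first desaturase of polyunsaturated fatty acid synthesis, had 35.2 ± 3.72 FPKM in KO2 and 30.8 ± 0.666 FPKM in Ctrl. The libraries did not overlap, and the adjusted p was 0.0647. Without both Ctrl replicate 2 and KO1 replicate 1 Fads2 was called, with a log2 fold change of 0.26 (adjusted p = 0.0322). That fit was chosen after seeing the data. Markers of adipocytes, which also make fatty acids, were low throughout. Of these markers 7 of 9 were listed, and their summed level was 0.25 to 0.38 FPKM in KO2, 3.33 to 4.20 FPKM in KO1 and 0.92 to 1.43 FPKM in Ctrl, with Plin1 and Cidec at 0 in all KO2 and KO1 libraries. Both adipocyte markers that could be tested changed in 1 knockout: Fabp4 was higher in KO1, at 2.46 ± 0.613 FPKM, against 0.270 ± 0.0693 FPKM in Ctrl (adjusted p = 4.72e-05), and Pparg was lower in KO2, at 0.187 ± 0.0681 FPKM, against 0.897 ± 0.179 FPKM in Ctrl (adjusted p = 0.000243).

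**Figure D3:**
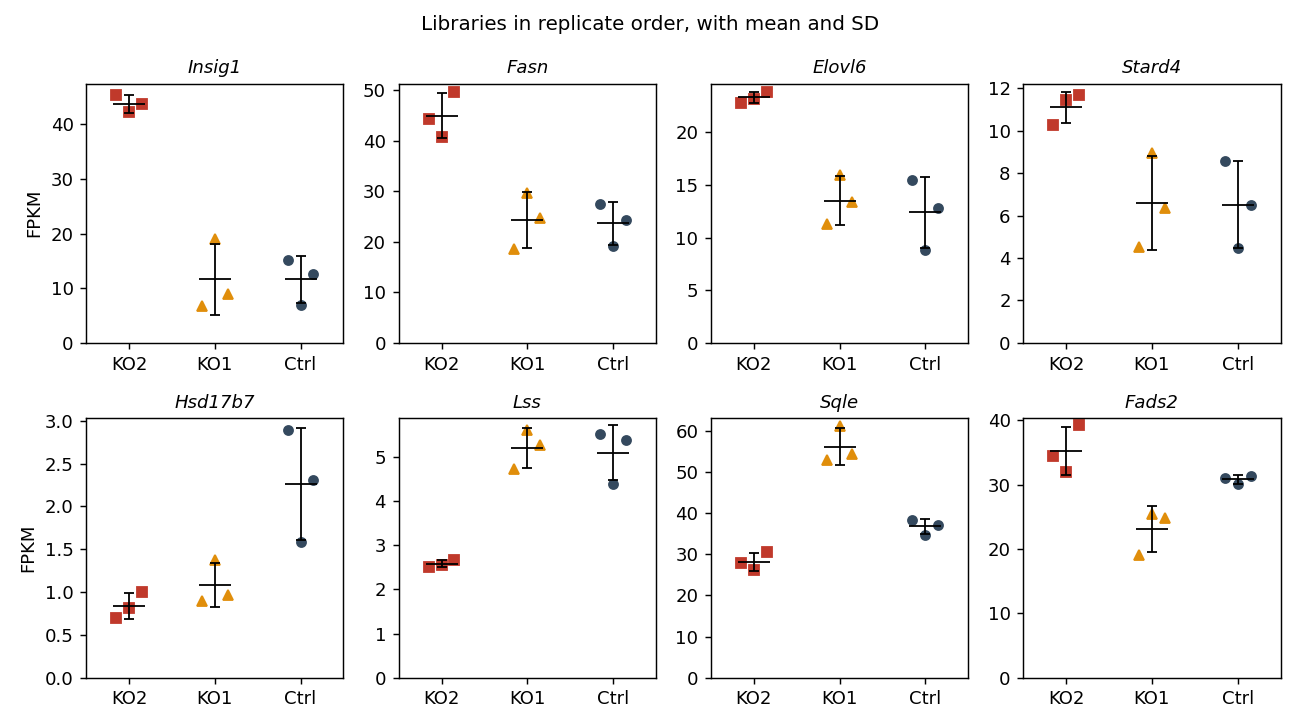
FPKM of 8 of the genes in each library, in replicate order within a group, with KO2 as squares, KO1 as triangles and Ctrl as circles; the horizontal line is the mean and the bar the SD of 3 libraries. Insig1, Fasn, Elovl6 and Stard4 are highest in KO2, Lss is lowest in KO2, Hsd17b7 is below Ctrl in both knockouts, Sqle is highest in KO1 and Fads2 is lowest in KO1.

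KO1 cells were compared with Ctrl in the same way and showed fewer calls. Sqle was the only one of the 32 genes that rose, and Mvd, Fdps, Hsd17b7 and Fads2 fell. These 5 of 32 calls stand against 30.5% of all tested genes called in KO1, 15.6% higher and 14.9% lower, and no test was made of that difference. The median log2 fold change of the 32 genes was -0.13. It was -0.34 for the mevalonate genes, -0.16 for the ring genes, -0.04 for the regulators and -0.01 for the fatty acid genes.

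Sqle had 52.9, 61.3 and 54.5 FPKM in KO1, against 38.3, 34.7 and 37.2 FPKM in Ctrl. The lowest KO1 library was 52.9 FPKM and the highest Ctrl library 38.3 FPKM, and the log2 fold change was 0.58 ± 0.0833 (adjusted p = 0.000345). Lss, the next enzyme, stayed level in the means, with 5.21 ± 0.445 FPKM in KO1 and 5.10 ± 0.618 FPKM in Ctrl. Hsd17b7 had 0.90, 1.37 and 0.97 FPKM in KO1, against 2.89, 1.58 and 2.31 FPKM in Ctrl, and fell by 1.09 ± 0.237 on the log2 scale (adjusted p = 0.00523). Mvd had 2.03, 2.55 and 2.36 FPKM in KO1, against 3.40, 3.71 and 3.42 FPKM in Ctrl. No KO1 library reached the Ctrl range, and the log2 fold change of Mvd was -0.63 ± 0.147 (adjusted p = 0.00728), the clearest change of the mevalonate arm. Fads2 fell to 23.1 ± 3.51 FPKM in KO1, against 30.8 ± 0.666 FPKM in Ctrl (log2 fold change -0.45 ± 0.114, adjusted p = 0.0122).

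Fdps was a borderline case in KO1. It had 24.5, 39.5 and 32.6 FPKM in KO1, against 49.6, 38.2 and 42.2 FPKM in Ctrl, so KO1 replicate 2 lay above Ctrl replicate 2. The log2 fold change was -0.47 ± 0.154 with an adjusted p of 0.0414. Leaving out any library other than Ctrl replicate 2 or KO1 replicate 2 ended the call, with adjusted p-values between 0.0527 and 0.143, and so did the fit with the replicate number as a block, at an adjusted p of 0.0881. Fdps was called without both Ctrl replicate 2 and KO1 replicate 1, with a log2 fold change of -0.38 (adjusted p = 0.0291). These libraries were picked for low values in the genes described here, so Fdps stayed a borderline case. Hsd17b7, which fell most in KO2, fell in KO1 as well, but the genes that rose most in KO2 had means close to Ctrl in KO1. Insig1 had 11.6 ± 6.53 FPKM in KO1 and 11.6 ± 4.26 FPKM in Ctrl. Fasn had 24.3 ± 5.59 FPKM in KO1 and 23.7 ± 4.24 FPKM in Ctrl, and Elovl6 had 13.5 ± 2.31 FPKM in KO1 and 12.4 ± 3.36 FPKM in Ctrl. The standard error of Insig1 in this comparison was 0.408 on the log2 scale, so a change of that size was not detectable.

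The count in KO1 depended on the libraries that stood apart. Without Ctrl replicate 2, 9 of 32 genes were called, where 27.4% of all tested genes were called. Without both Ctrl replicate 2 and KO1 replicate 1, 11 of 32 genes were called, 1 higher and 10 lower, where 31.3% of all tested genes were called. The additional genes were Idi1, Cyp51, Msmo1, Nsdhl, Scd2 and Tm7sf2, all lower in KO1, and Tm7sf2 then rests on 2 KO1 libraries listed at 0. Idi1 then had a log2 fold change of -0.74 (adjusted p = 0.0390) and Cyp51 of -0.39 (adjusted p = 0.0260). Sqle, at 0.59, and Hsd17b7, at -1.17, were close to their values with all libraries. Both libraries left out were picked for low values in these genes, so the additional calls may follow from that choice.

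**Figure D4:**
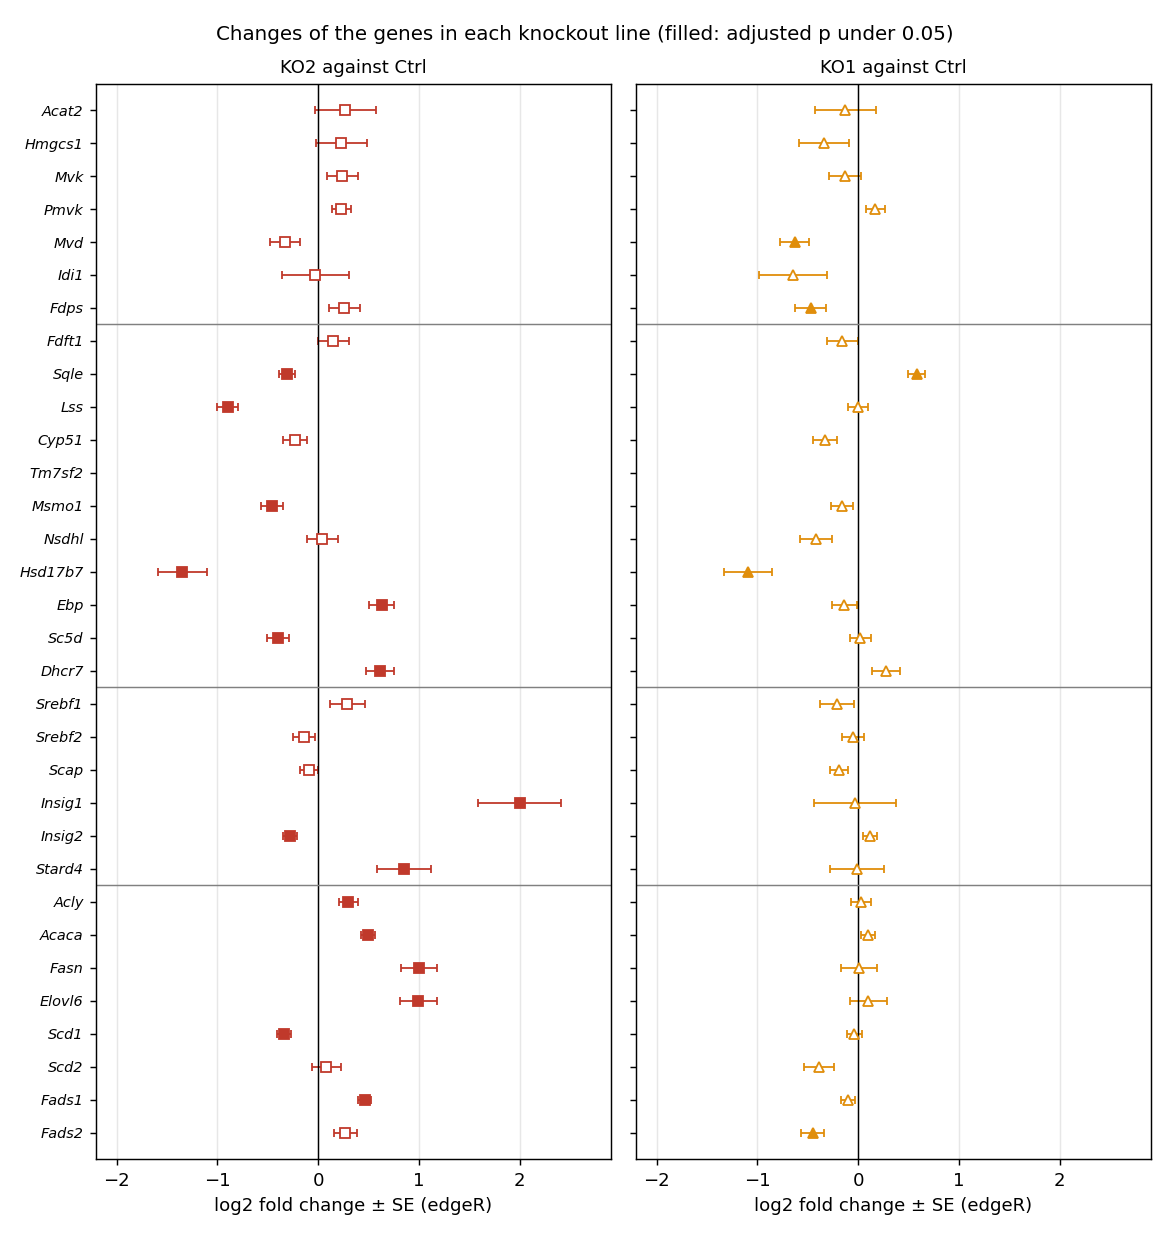
Log2 fold change of each gene in KO2 against Ctrl (left) and KO1 against Ctrl (right) with its standard error, ordered by pathway step, with filled symbols where the edgeR adjusted p is under 0.05; Tm7sf2 is left blank because of its low counts. The left panel shows 16 filled symbols from -1.35 for Hsd17b7 to 2.00 for Insig1, and the right panel shows 5.

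Hsd17b7 was the single gene of the 32 called in the same direction in both knockouts. It was lower in both, where 7.83% of all tested genes were called lower in both, and none of the 32 was called higher in both, where 6.31% of all tested genes were. These comparisons share the Ctrl libraries. Without Ctrl replicate 2 the count was 2, with Cyp51 added, without KO1 replicate 1 it was 2, with Dhcr7 added, and without both libraries it was 3, with Cyp51 and Msmo1 added. Sqle was called in both knockouts in opposite directions, lower in KO2 and higher in KO1.

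KO2 was set directly against KO1 to test whether the knockouts differed. Fatty acid genes were higher in KO2 than in KO1 with the exception of Scd1, the ring enzymes were again split, and Insig1 showed the largest difference among the genes called. In all, 13 of 32 genes were higher and 6 lower in KO2 than in KO1, where 55.0% of all tested genes were called, 25.5% higher and 29.5% lower; the share of the 32 genes is near that of all genes. The median log2 difference of the 32 genes was 0.38, against -0.02 for all tested genes. Without both Ctrl replicate 2 and KO1 replicate 1, 18 of 32 genes were called, where 54.4% of all tested genes were called. All 8 fatty acid genes were called, 7 higher and 1 lower, with a median of 0.51. Of the regulators, 3 were higher and 1 lower, of the ring genes 2 were higher and 4 lower, and of the 7 mevalonate genes 1, Fdps, was higher.

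Insig1 averaged 43.7 ± 1.60 FPKM in KO2 and 11.6 ± 6.53 FPKM in KO1 (SD, n = 3 each), a log2 difference of 2.02 ± 0.413 (adjusted p = 0.00391). Without KO1 replicate 2, in which Insig1 was at 19.0 FPKM, the difference was 2.61. Sqle averaged 28.2 ± 2.18 FPKM in KO2 and 56.2 ± 4.44 FPKM in KO1. Its log2 difference of -0.89 ± 0.0839 had the smallest adjusted p of the 32 genes, 5.62e-06. Lss, the following enzyme, was likewise lower in KO2 than in KO1, by -0.91 ± 0.103 (adjusted p = 2.49e-05). Fasn differed by 0.99 ± 0.177 and Elovl6 by 0.89 ± 0.184, nearly the size of their changes against Ctrl. Fads2, at 34.4, 31.97 and 39.3 FPKM in KO2 and 19.1, 25.4 and 24.9 FPKM in KO1, differed by 0.72 ± 0.115 (adjusted p = 0.000322). Fdps differed by 0.73 ± 0.154 (adjusted p = 0.00229), and Ebp by 0.77 ± 0.124 (adjusted p = 0.000335). Hsd17b7, by contrast, had a log2 difference of -0.26 ± 0.248 between the knockouts (adjusted p = 0.397).

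Of the 19 differences between KO2 and KO1, 13 held in every fit that left out a library and under every other scaling, filter, test or choice of samples run. The exceptions were Msmo1 (-0.31), Nsdhl (0.46), Srebf1 (0.51), Stard4 (0.87), Acly (0.27) and Scd2 (0.46). All of these 6 lost the call without KO1 replicate 1, where the adjusted p was 0.107 for Msmo1, 0.0911 for Nsdhl, 0.0539 for Srebf1, 0.0613 for Stard4, 0.102 for Acly and 0.0628 for Scd2. Of the 6 genes, 4 were called without both Ctrl replicate 2 and KO1 replicate 1. They were Nsdhl at 0.33 (adjusted p = 0.0269), Srebf1 at 0.34 (adjusted p = 0.0101), Stard4 at 0.65 (adjusted p = 0.0110) and Scd2 at 0.33 (adjusted p = 0.0132). Msmo1 (adjusted p = 0.0747) and Acly (adjusted p = 0.0532) were not called. Both libraries left out were picked for low values in these genes, so that fit does not restore the lost calls. Nsdhl, Srebf1, Stard4, Acly and Scd2 also lost the call without KO1 replicate 3 or KO2 replicate 3. Nsdhl, Acly and Msmo1 lost it without KO2 replicate 1, and Srebf1, Stard4 and Msmo1 without KO2 replicate 2. Srebf1 overlaps Rai1, and Srebf1 is the only transcription factor gene of the set called in any of the 3 comparisons.

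Other genes of the pathway were taken from 4 lists that surround the 32 genes: SREBP cleavage and turnover, the isoprenoid branch, fatty acid supply, elongation and activation, and sterol storage and efflux with the LXR receptors. Of 54 such genes 48 were tested. In KO2 against Ctrl 10 were higher and 16 lower, with a median log2 fold change of -0.07, where 54.1% of all tested genes were called; the share of the 48 genes is near that of all genes. In KO1 against Ctrl 3 were higher and 5 lower, with a median of -0.02, where 30.5% of all tested genes were called, and no test was made of that difference. By list, KO2 against Ctrl gave 1 higher and 1 lower of 7 cleavage and turnover genes, 1 higher and 5 lower of 10 isoprenoid genes, 5 higher and 5 lower of 19 fatty acid genes, and 3 higher and 5 lower of 12 storage and efflux genes. KO2 against KO1 gave 7 higher and 16 lower of the 48, where 55.0% of all tested genes were called, 25.5% higher and 29.5% lower.

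Of the 48 genes Abca1, the cholesterol efflux pump, changed most. It had 0.21, 0.26 and 0.23 FPKM in KO2, 0.43, 0.48 and 0.54 FPKM in KO1, and 2.33, 1.97 and 2.47 FPKM in Ctrl. The groups did not overlap, and the log2 fold change against Ctrl was -3.21 ± 0.140 in KO2 (adjusted p = 1.13e-08) and -2.25 ± 0.130 in KO1 (adjusted p = 3.67e-07). Nr1h3, which encodes the sterol-sensing receptor LXR-alpha, averaged 0.720 ± 0.282 FPKM in KO2, 1.70 ± 0.397 in KO1 and 1.68 ± 0.244 in Ctrl, and was called in KO2 with a log2 fold change of -1.15. Nr1h2, the other LXR gene, moved the other way in KO2 and was far more abundant. It averaged 29.1 ± 0.871 FPKM in KO2, 21.7 ± 3.6 in KO1 and 23.4 ± 1.58 in Ctrl. Its log2 fold change was 0.41 in KO2 (adjusted p = 0.00684) and -0.14 in KO1, where it was not called. Lipa, the lysosomal lipase that frees cholesterol from its esters, averaged 3.88 ± 0.118 FPKM in KO2, 17.1 ± 1.72 in KO1 and 14.2 ± 0.364 in Ctrl. It fell by 1.79 on the log2 scale in KO2 and had a log2 fold change of 0.24 in KO1 (adjusted p = 0.0511). Elovl7, another elongase, fell by 1.5 on the log2 scale in KO2, and Acsl1, which activates long-chain fatty acids, fell by 1.12 in KO2, while neither was called in KO1. Acsl3, an acyl-CoA synthetase of the endoplasmic reticulum and lipid droplets, rose in both, with log2 fold changes of 0.47 in KO2 and 0.32 in KO1. Ggps1, which leads the isoprenoid units away from sterols to geranylgeranyl diphosphate, fell in both, by 0.33 in KO2 and by 0.47 in KO1; the call in KO2 was lost without KO2 replicate 2 (adjusted p = 0.0560).

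Of the 32 genes 5 lie on chromosome 19, as does Malat1 (chr19:5795690-5802672, GRCm38). Tm7sf2 (chr19:6062821-6067850) is the nearest, 0.26 Mb away, followed by Fads2 (chr19:10062765-10101503) at 4.26 Mb and Fads1 (chr19:10182877-10196874) at 4.38 Mb, while Scd2 and Scd1 are 38.5 and 38.6 Mb away. The neighbouring desaturase genes did not all move the same way. Fads1 and Fads2 shared the sign of their change in each comparison but not every call. In KO2 against Ctrl the log2 fold change was 0.46 for Fads1, which was called, and 0.27 for Fads2, which was not. In KO1 against Ctrl it was -0.10 for Fads1, which was not called, and -0.45 for Fads2, which was. Both were called higher in KO2 than in KO1. Fads3 (chr19:10040855-10060113), the third gene of the cluster, fell by 1.59 ± 0.228 on the log2 scale in KO2. In KO1 Fads3 had a log2 fold change of -0.46 (adjusted p = 0.146). Fads3 had 5.15, 4.72 and 5.11 FPKM in KO2, 14.1, 8.58 and 12.5 FPKM in KO1, and 11.6, 20.7 and 15.1 FPKM in Ctrl, so KO1 and Ctrl overlapped and KO2 stood below both.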

How the data were processed

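RNA of 9 libraries was measured, 3 each of KO2, KO1 and Ctrl, grouped by their titles. Per the submitters' processing notes the authors used HISAT and RSEM with the builds mm10 and GRCm38; the versions are not given in the sources used here. For each gene the deposited tables give an expected count (a raw estimate of reads) and an FPKM value, in which the authors corrected for length and depth. Genes are listed from an FPKM of 0.01 upward, and any gene missing from a library's list was set to 0. Between 74.7% and 75.8% of the expected counts of a library were whole, and all were rounded to whole numbers.

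The tests used edgeR 4.0.16 (R 4.3.3). After filterByExpr and TMM scaling, with factors from 0.9496 to 1.0364, a single robust quasi-likelihood model of the 9 libraries was fitted. It had 1 term for each group, which left 6 residual degrees of freedom. The common biological coefficient of variation was 11.1%. P-values were adjusted by the Benjamini-Hochberg method over 13682 genes and called under 0.05. The standard error is the log2 fold change divided by the square root of F and is approximate. The fit was tested on simulated data. Alternatives used limma 3.58.1 on log2 of FPKM plus a pseudocount of 1 or 0.1, DESeq2 1.42.0, its size factors, no filter, only the groups compared, the replicate number as a block, stricter thresholds and each library left out in turn. Replicates of a group differed by far more than sampling noise, and the shared replicate numbers did not pair the samples.

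The 32 genes, the other pathway genes and the marker lists were chosen with earlier results of these data known. Values per library are given for genes called with a log2 fold change of at least 0.5 in size in either knockout against Ctrl. Of the other pathway genes, those named were called in the same direction in both knockouts, or with a log2 fold change of at least 1 in size, up to 4 per list. Nr1h2 was named in addition, beside Nr1h3. Positions of all 32 genes and promoter windows come from RefSeq tables of GRCm38. The split of reads is uncertain for Scd1 and Scd2, and for Acat2 beside its near copy Acat3.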

Additional observations from a re-analysis of the deposited data

Results flagged for a closer look

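The changes of 19 of the 32 genes against Ctrl differed between the knockouts by the direct edgeR comparison of KO2 with KO1, adjusted over 13682 genes, where 55.0% of all tested genes were called. The log2 difference of KO2 over KO1 was 2.02 for Insig1, 0.99 for Fasn, 0.89 for Elovl6, 0.87 for Stard4, 0.77 for Ebp, 0.73 for Fdps, 0.72 for Fads2, 0.56 for Fads1, 0.51 for Srebf1, 0.46 for Nsdhl, 0.46 for Scd2, 0.39 for Acaca and 0.27 for Acly. It was -0.91 for Lss, -0.89 for Sqle, -0.42 for Sc5d, -0.40 for Insig2, -0.31 for Msmo1 and -0.30 for Scd1.

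Among the other pathway genes the same comparison gave log2 differences of -2.03 for Lipa, -1.28 for Elovl7, -1.14 for Nr1h3, -1.13 for Fads3, -1.05 for Acsl1 and -0.96 for Abca1. With 3 libraries per group, single libraries were not tested as outliers.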

How the results depend on the processing

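Of 32 genes, 14 of the 16 calls in KO2 against Ctrl, 4 of the 5 in KO1 against Ctrl and 13 of the 19 in KO2 against KO1 held under every other scaling, filter, test, choice of samples and left-out library run. Requiring a 1.5-fold change left 8, 2 and 9 calls in these comparisons, and for the other pathway genes 8, 2 and 11. In KO1 against Ctrl 3 calls remained at an adjusted p under 0.01. The shares of all tested genes at the 1.5-fold and the 0.01 thresholds are not given here, so these counts cannot be read against them. Without Ctrl replicate 2 and KO1 replicate 1, an alternative chosen after seeing the data, 11 calls were made in KO1 against Ctrl. In that fit 31.3% of all tested genes were called. The genes called the same way in both knockouts numbered 2, Mvd and Hsd17b7, with limma at either pseudocount, and 3 without those libraries. Leaving out each library in turn gave 14 to 19 calls in KO2 against Ctrl, 4 to 9 in KO1 against Ctrl, 14 to 23 in KO2 against KO1 and 1 to 2 in the same direction in both. For the other pathway genes it gave 22 to 30, 7 to 11 and 20 to 31. In the same fits 13836 to 13914 genes were tested. Of all tested genes, 6412 to 7985 were called in KO2 against Ctrl, 3215 to 4503 in KO1 against Ctrl and 6451 to 7964 in KO2 against KO1.

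The same replicate numbers did not pair the samples: correlations of their deviations were between -0.343 and 0.049. With the replicate number as a block, the calls of the 32 genes were 16 in KO2 against Ctrl, 4 in KO1 against Ctrl, 17 in KO2 against KO1 and 1 in the same direction in both. For the other pathway genes the block gave 26, 7 and 21. Of 13682 tested genes it called 6726 in KO2 against Ctrl, 3365 in KO1 against Ctrl and 6829 in KO2 against KO1.

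Signs turned only for values between -0.13 and 0.10 that passed no test. Without both libraries the log2 fold change in KO1 against Ctrl was 0.01 for Mvk, -0.03 for Lss, -0.03 for Sc5d, 0.02 for Srebf2 and 0.11 for Nr1h3. In KO2 against Ctrl it was -0.09 for Nsdhl and -0.04 for Scd2, and in KO2 against KO1 -0.01 for Pmvk. With limma on log2 FPKM at a pseudocount of 1 and 0.1, KO2 against KO1 gave -0.04 and -0.05 for Pmvk and -0.01 at both for Cyp51 and Scap. Nsdhl in KO2 against Ctrl was -0.03 at both, Stard4 in KO1 against Ctrl was 0.01 at both, and Nr1h3 in KO1 against Ctrl was 0.01 and 0.00. Lss in KO1 against Ctrl was -0.00 with no filter and with only the groups compared. Leaving out a library, KO1 against Ctrl ran from -0.46 to 0.10 for Acat2, -0.32 to 0.04 for Mvk, -0.09 to 0.07 for Lss, -0.05 to 0.12 for Sc5d, -0.14 to 0.06 for Srebf2, -0.60 to 0.25 for Insig1, -0.30 to 0.24 for Stard4, -0.07 to 0.10 for Acly, -0.17 to 0.17 for Fasn, -0.09 to 0.30 for Elovl6, -0.08 to 0.03 for Scd1, -0.14 to 0.01 for Acsl1 and -0.20 to 0.14 for Nr1h3. KO2 against Ctrl ran from -0.32 to 0.27 for Idi1, -0.09 to 0.14 for Nsdhl and -0.04 to 0.14 for Scd2, and KO2 against KO1 from -0.01 to 0.16 for Pmvk and -0.19 to 0.03 for Srebf2. The cause of these turns was not tested. limma at a pseudocount of 0.1 moved the median of all genes to -0.1074 in KO2 against Ctrl and to -0.1255 in KO2 against KO1. Depth limits Tm7sf2, which had at most 54 estimated counts in a library.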
